A study of Mus musculus with 23 samples.

Results

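Transcripts were compared between MC38 tumors grown in CC002F1 mice and MC38 tumors grown in mice of the other responder lines. CC002F1 tumors were those whose host is given in the labels as C57BL/6J x CC002/UncJ, and there were 4 of them among the 23 tumors of the series, 2 given an isotype control antibody and 2 given an antibody against PD-1 (aPD1). They were set against 8 tumors from C57BL/6J x CC001/UncJ (CC001F1) and C57BL/6J x CC075/UncJ (CC075F1) hosts, with 2 isotype and 2 aPD1 tumors per line. The remaining 11 tumors came from the non-responder lines CC036F1, CC079F1 and CC080F1 and served only for context. The labels do not say which lines respond to aPD1, so this division was taken from the study's description.

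All hosts were female, 8 to 12 weeks old, and received MC38 cells under the skin. One intraperitoneal dose of 200 µg antibody (clone 2A3 as isotype control or 29F.1A12 as aPD1) was given when tumors measured 75 to 110 mm3, and tumors were taken 48 h later. Frozen tumor tissue was the source of the poly(A) RNA. Each host was a first-generation (F1) cross, so every mouse carried 1 C57BL/6J chromosome set, and mice of a line were genetically alike. MC38 is a colon carcinoma line derived from C57BL/6 mice. Tumor cells in all hosts therefore had the same origin, and a difference between hosts could come from host cells in the tumor or from tumor cells exposed to a different host. Bulk tumor RNA does not separate these sources. Fewer cells of a type and less RNA per cell likewise cannot be told apart.

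The Collaborative Cross is a panel of inbred mouse lines that each mix the genomes of several founder strains, including wild-derived ones. Strains of this kind differ in regulatory sequence, in gene copy number and in whole genes, and multigene families of innate immunity such as lysozymes, guanylate-binding proteins, CD300 receptors and natural killer receptors are known for such differences. PD-1 is an inhibitory receptor on T cells. Blocking it releases T cells and is commonly followed by interferon-gamma, which induces chemokines, guanylate-binding proteins and antigen presentation in macrophages and tumor cells.

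Library totals of the 12 responder-line tumors ran from 14494014 to 71868253 expected counts. The shallow libraries were CC001F1 isotype replicate 2 and CC075F1 aPD1 replicate 2. Within CC002F1 the isotype libraries held 38036063 and 39491076 counts and the aPD1 libraries 64113981 and 71868253, so depth moved with the antibody in this line. CC002F1 isotype replicate 1 stood apart from the other 3 CC002F1 tumors in B cell and lymph node transcripts, described with the immune makeup. Epithelial markers that might identify the carcinoma were low. Krt8 had normalized counts of 117.8, 66.0, 2.6 and 3.5 in the 4 CC002F1 tumors, in the order isotype replicates 1 and 2, then aPD1 replicates 1 and 2. This order is used for every list of 4 CC002F1 values. Normalized counts are counts divided by a library size factor, and they are not scaled for gene length.

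The differences of CC002F1 tumors that held with every tool lay in single genes. Ifi44l was present in CC002F1 tumors and all but absent elsewhere. The lysozyme genes Lyz1 and Lyz2 moved in opposite directions, Gbp2b was higher, and the B cell chemokine Cxcl13, the CD300 family gene Cd300ld4, the protease Ctse and the proton pump subunit Atp6v0e2 were lower. With antibody as a term, 80 genes passed a DESeq2 adjusted p under 0.05, which was 0.4% of the 20000 genes that received one. In CC002F1, 32 of them were higher (0.16%) and 48 were lower (0.24%). With edgeR's quasi-likelihood test 20 genes passed, 0.0805% of 24858, 13 higher and 7 lower. All 20 were among the 80 and also passed limma, which called 114 genes (0.459%) with line as a random effect and shared 55 of the 80. The within-line correlation that limma estimated was negative, at -0.134, so this fit did not make the test stricter for tumors that share a line. Of the same 24858 genes, limma gave 3546 an unadjusted p under 0.05, DESeq2 1316 and edgeR 1418. Passing limma was thus the looser condition. Single libraries moved the DESeq2 count, to 49 without CC002F1 isotype replicate 1, 126 without CC075F1 isotype replicate 2 and 187 without CC001F1 aPD1 replicate 1. The accounts of single genes begin with the 20.

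**Figure D1:**
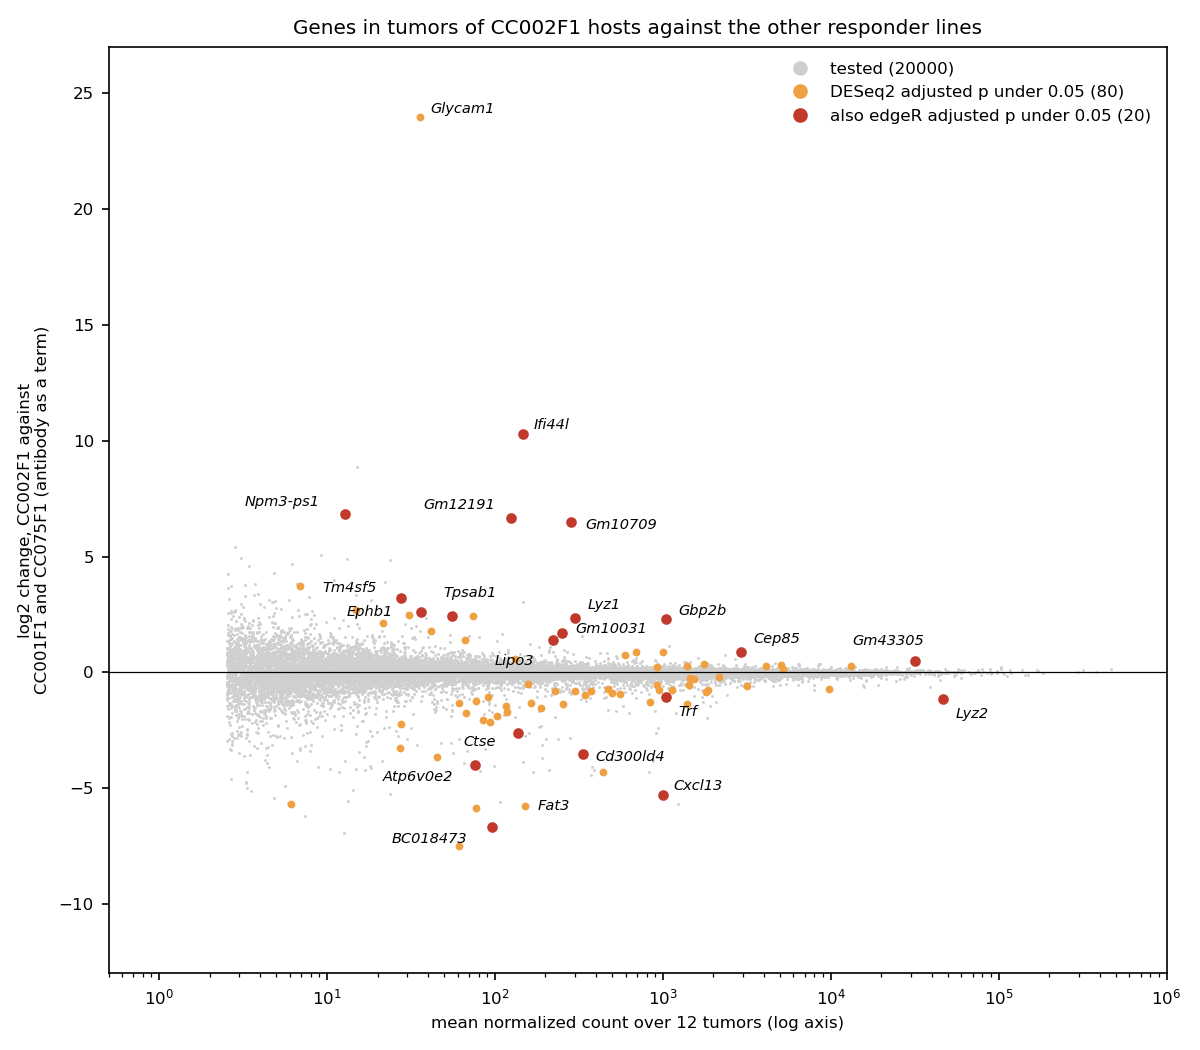
Each point is a gene, with its mean normalized count over 12 tumors on a log axis and the log2 change of CC002F1 against CC001F1 and CC075F1 on the vertical axis. Grey points are the 20000 genes tested, orange points the 80 with a DESeq2 adjusted p under 0.05 and red points the 20 that edgeR called too, from Ifi44l at 10.31 to BC018473 at -6.67. Glycam1, alone near the top at 23.99, rested on 1 tumor.

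Lysozyme is an enzyme of phagocytes that cleaves bacterial cell walls. In mice Lyz2 is the form of macrophages and neutrophils, and Lyz1 is best known from Paneth cells of the intestine. The genes lie side by side on chromosome 10, Lyz2 at chr10:117277331-117282321 and Lyz1 at chr10:117287797-117292868 (GRCm38, minus strand). Because a count depends on telling the copies apart, the coding part of exon 1 is shown for each, from the reference genome, with bases that differ between them in capitals.
Lyz1: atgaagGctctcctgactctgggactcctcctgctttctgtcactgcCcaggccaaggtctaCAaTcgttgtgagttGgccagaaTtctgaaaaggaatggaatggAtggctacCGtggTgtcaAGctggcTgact
Lyz2: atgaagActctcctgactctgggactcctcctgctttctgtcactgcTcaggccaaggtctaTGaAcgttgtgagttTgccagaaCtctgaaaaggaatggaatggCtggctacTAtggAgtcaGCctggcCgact
These stretches are chr10:117292703-117292838 and chr10:117282107-117282242, read on the minus strand. They differ at 14 of 136 bases, and the whole coding sequences differ at 22 of 444 bases (95.0% identical). Over the full reference transcripts, 2.06% of the 100-base windows of Lyz1 and 1.97% of those of Lyz2 occurred in the other gene. By the reference sequence most Lyz2 reads could thus be placed. Lyz1 counts were far smaller than Lyz2 counts, so even a small share of misplaced Lyz2 reads could change them. This was not tested, and sequences of the founder strains were not compared.

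Lyz1 had normalized counts of 502.2, 414.2, 886.6 and 804.4 in CC002F1 tumors. In the 8 other responder-line tumors it ran from 69.1 to 203.2 with a median of 123.2, and it reached 316.2 at most in the 11 non-responder tumors. Every CC002F1 tumor was above every other tumor of the series. The log2 change was 2.36 ± 0.25 (SE; DESeq2 adjusted p = 2.004e-17, edgeR adjusted p = 0.0001677), a 5.3-fold difference of means. Lyz2, at a far higher level, was lower in the same tumors.

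Lyz2 had 19542, 19079, 33329 and 33940 normalized counts in CC002F1, against 45331 to 76509 with a median of 54794 in the 8 others. The groups did not overlap, and the means differed 2.15-fold (DESeq2 adjusted p = 1.119e-11, edgeR adjusted p = 0.003801). Non-responder tumors, at 23871 to 49198, overlapped the CC002F1 range. Lyz1 thus made up 2.13% to 2.59% of the summed counts of the pair in CC002F1, 0.128% to 0.363% in the 8 others and 0.249% to 0.726% in non-responder tumors. The sum of both genes was also lower, at 19493 to 34745 in CC002F1 against 45415 to 76637. The 12 genes of the macrophage list, which does not hold Lyz2, had a median log2 change of -0.06, and none was called. Their sums overlapped between the groups, but both CC002F1 isotype tumors, at 91983 and 87825, were below the 8 others, at 103112 to 171226. What the number of phagocytes contributed to the Lyz2 difference was not tested.

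Ifi44l had the largest log2 change of the genes that edgeR called too. Ifi44l, an interferon-induced gene of the IFI44 family at chr3:151758737-151762892, had 336.6, 294.9, 551.6 and 583.6 normalized counts in CC002F1. It was 0 in 7 of the 8 other responder-line tumors, 1.8 in CC001F1 aPD1 replicate 2, and 0 in all 11 non-responder tumors. The log2 change was 10.31 ± 0.74 (SE; DESeq2 adjusted p = 1.238e-40, edgeR adjusted p = 9.616e-10). Its size is set by a near-empty comparison group, and none of the 100-base windows of Ifi44l occurred in another annotated gene. The next gene on the chromosome, Ifi44, gave a different picture.

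Ifi44 had 1289, 1200, 2199 and 2032 normalized counts in CC002F1 and 362.2 to 2039 with a median of 703.1 in the 8 others, so the groups overlapped (log2 change 1.13 ± 0.34, DESeq2 adjusted p = 0.1392, edgeR adjusted p = 0.3). Between isotype tumors alone, 2 against 4, it was called higher in CC002F1 (log2 change 1.27, DESeq2 adjusted p = 0.0003153). The rest of the type I interferon list did not rise with it. Of its 20 genes, Ifi44 included, none was called and 2 lay above 0, with a median log2 change of -0.30 beside -0.01 for all genes tested. Ifi44l was therefore not accompanied by a general increase of interferon-induced transcripts.

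Guanylate-binding proteins are interferon-induced GTPases that act on intracellular pathogens and their vacuoles. Gbp2b had 1159.9, 1302, 3209 and 2362 normalized counts in CC002F1, against 122.6 to 1615 with a median of 250.5 in the 8 others and 35.9 to 268.3 in non-responder tumors. The 4 other responder-line isotype tumors had 122.6 to 190.2, while 1 aPD1 tumor of each other line, at 1437 and 1615, reached above the CC002F1 isotype tumors. The log2 change was 2.30 ± 0.46 (SE; DESeq2 adjusted p = 0.0004127, edgeR adjusted p = 0.02384). It was 2.98 between isotype tumors (DESeq2 adjusted p = 4.716e-51) and 1.54 between aPD1 tumors (DESeq2 adjusted p = 0.6172). The difference between these changes was not called (log2 difference -1.43 ± 0.85, DESeq2 adjusted p = 0.4911).

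Other members of this family were called lower in isotype tumors. Of 11 genes, Gbp2b was the only one called in all 12 tumors, beside 0.4% of all genes tested. The list had a median log2 change of -0.30. Among isotype tumors, where 361 of 15442 genes were called (2.34%), 6 of the 11 were called, Gbp2b higher and Gbp5, Gbp6, Gbp7, Gbp8 and Gbp10 lower. Gbp5 was at 1383 and 1581 in the CC002F1 isotype tumors (log2 change -0.70, DESeq2 adjusted p = 0.003753), and Gbp8 at 488.8 and 460.0 (log2 change -0.82, DESeq2 adjusted p = 0.01601). Among aPD1 tumors, where 128 of 15602 genes were called (0.82%), none of the 11 was called. Gbp2b shared no 100-base window with another gene.

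Chemokines attract leukocytes into tissue. Of the 32 chemokine genes tested, 4 were called lower in CC002F1 tumors (beside 0.24% of all genes) and none was called higher. Of the 32, 7 had a log2 change above 0, and the median was -0.29. The largest change was in Cxcl13, the ligand of CXCR5 that draws B cells and follicular helper T cells. Cxcl13 had 58.9, 19.2, 28.4 and 42.9 normalized counts in CC002F1 against 591.1 to 2793 with a median of 1270 in the 8 other responder-line tumors. The means differed 39.6-fold without overlap (log2 change -5.28 ± 0.45, DESeq2 adjusted p = 3.022e-28, edgeR adjusted p = 4.754e-05). Non-responder tumors, at 4.0 to 143.5, covered the whole CC002F1 range. Low Cxcl13 thus separated CC002F1 from the other responder lines but not from the non-responder lines.

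The other chemokines that were called are ligands for monocytes and T cells, and none of them passed edgeR. Ccl12, a CCR2 ligand, had 444.4, 551.6, 1054 and 577.8 normalized counts in CC002F1 against 882.6 to 1356 in the 8 others. CC002F1 aPD1 replicate 1 was the only one of the 4 inside that range (log2 change -0.76 ± 0.16, DESeq2 adjusted p = 0.001909, edgeR adjusted p = 0.2186). Ccl9, a CCR1 ligand made by myeloid cells, changed by -0.85 ± 0.18 (DESeq2 adjusted p = 0.002088, edgeR adjusted p = 0.2286). Cxcl11, a CXCR3 ligand that the annotation lists as a polymorphic pseudogene, changed by -1.39 ± 0.34 (DESeq2 adjusted p = 0.01596, edgeR adjusted p = 0.5774), and it was called against CC001F1 but not against CC075F1. The CXCR3 ligands Cxcl9 and Cxcl10 were not called. Ccl2, the main monocyte attractant, was called lower between isotype tumors (log2 change -1.01, DESeq2 adjusted p = 7.037e-11).

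**Figure D2:**
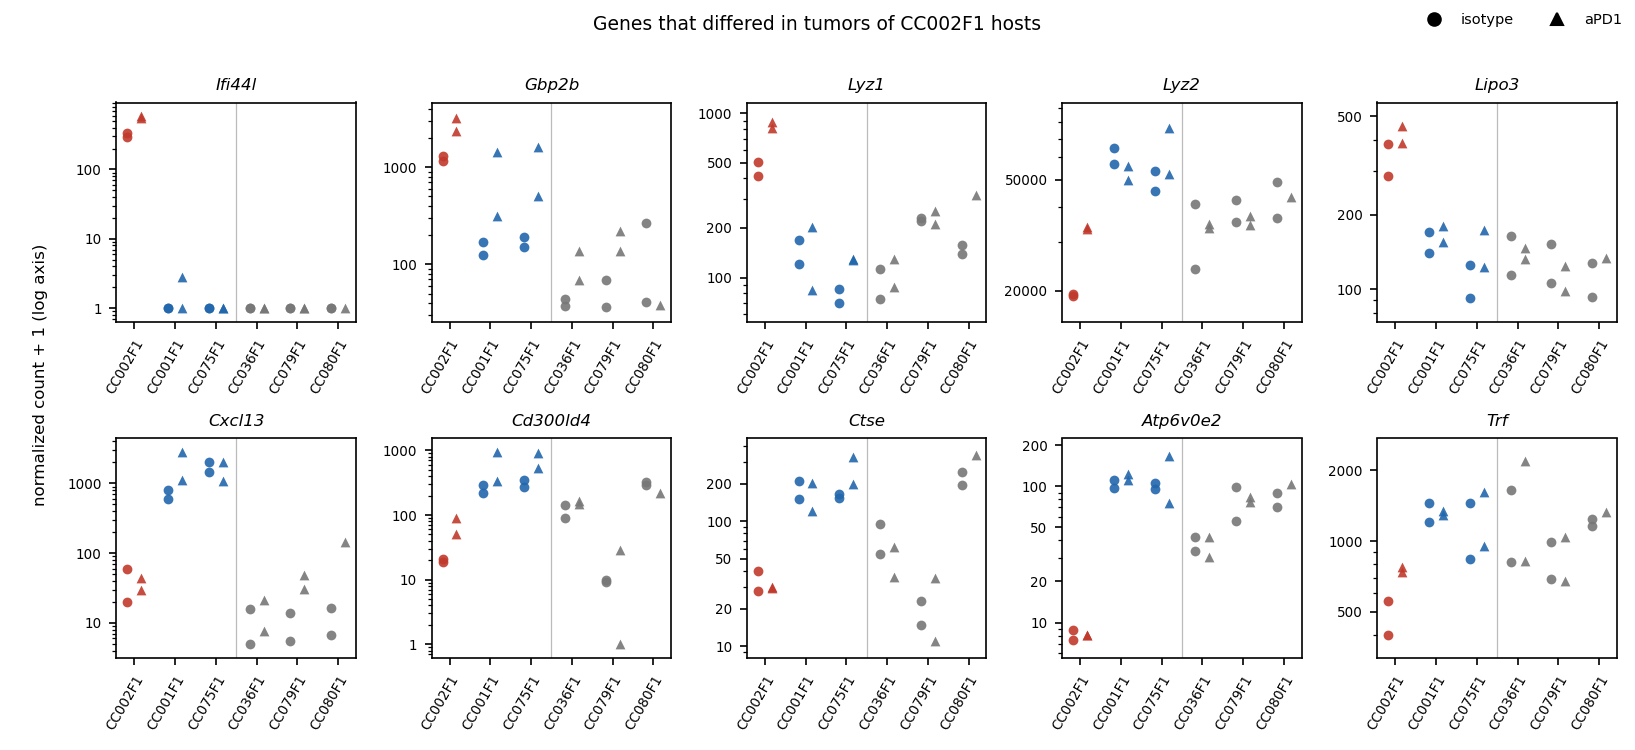
Normalized counts plus 1 on a log axis for 10 genes, with 1 point per tumor, circles for isotype and triangles for aPD1, CC002F1 in red, the other responder lines in blue and non-responder lines in grey. CC002F1 tumors lie apart from all other tumors for Ifi44l, Lyz1, Lipo3 and Atp6v0e2, and apart from the other responder lines for Lyz2, Cxcl13, Cd300ld4, Ctse and Trf.

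Both tools also called Atp6v0e2, Ctse, Trf and Cd300ld4 lower. Atp6v0e2, a subunit of the vacuolar proton pump that acidifies endosomes, had 7.8, 6.4, 7.1 and 7.0 normalized counts in CC002F1 against 74.6 to 165.9 with a median of 107.3 in the 8 others. The 15.5-fold difference (log2 change -3.99 ± 0.32, edgeR adjusted p = 5.841e-06) also separated CC002F1 from the non-responder tumors, which had 29.3 to 103.7. Ctse, an aspartic protease of endosomes, had 38.9, 26.6, 28.4 and 28.8 normalized counts against 119.9 to 325.6 with a median of 181.1. It was 6.2-fold lower (log2 change -2.63 ± 0.26, DESeq2 adjusted p = 8.312e-20, edgeR adjusted p = 0.0002482), but non-responder tumors at 10.0 to 336.1 spanned both groups.

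Trf encodes transferrin, the iron carrier of plasma. It had 557.7, 398.2, 734.6 and 775.6 normalized counts in CC002F1 and 835.6 to 1612 with a median of 1315 in the 8 others, a 2.05-fold difference without overlap (log2 change -1.06 ± 0.18, DESeq2 adjusted p = 2.44e-06, edgeR adjusted p = 0.04076). Non-responder tumors, at 675.7 to 2179.2, overlapped the CC002F1 range. The annotated gene Gm20425 overlaps Trf on the same strand, so counts of these genes are uncertain. Gm20425 was itself lower by a log2 change of -0.57 (DESeq2 adjusted p = 0.000543, edgeR adjusted p = 0.127). Of the red blood cell genes, which also bear on blood content, Hbb-bt was lower too.

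CD300 receptors are paired activating and inhibitory receptors of myeloid cells, and their genes form a cluster on chromosome 11. Cd300ld4 (chr11:115020728-115027012) had 17.8, 20.2, 88.0 and 49.3 normalized counts in CC002F1 against 216.4 to 940.2 with a median of 339.3 in the 8 others. It was 10.9-fold lower (log2 change -3.55 ± 0.28, DESeq2 adjusted p = 1.316e-32, edgeR adjusted p = 4.754e-05). Cd300ld3 (chr11:115042131-115048409) was higher, at 1299.8, 1033, 1553 and 1687 against 408.9 to 1610 with a median of 649.5 (log2 change 0.89 ± 0.23, DESeq2 adjusted p = 0.02903, edgeR adjusted p = 0.3883), with overlap of the groups.

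These 2 genes are hard to tell apart in the reference. Their coding sequences of 735 bases differ at 4 bases, and 80.9% of the 100-base windows of Cd300ld3 and 86.7% of those of Cd300ld4 occur in other genes of the cluster, mostly Cd300ld5. Cd300ld3 made up 94.6% to 98.7% of the pair in CC002F1, 54.0% to 75.3% in the 8 others and 49.5% to 100% in non-responder tumors. The summed pair overlapped between the groups, at 1053 to 1736 in CC002F1 and 738.3 to 2510.0 in the 8 others. The values of each gene alone are therefore uncertain, while the split of the pair differed between CC002F1 and the other responder lines. It was not particular to CC002F1. Tumors of the non-responder line CC079F1 had 96.2% to 100% Cd300ld3, with Cd300ld4 at 0 to 27.4 normalized counts.

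BC018473 was the only gene that met the rule for being off in CC002F1, meaning 5 or fewer normalized counts in every CC002F1 tumor and 20 or more in each of the 8 others. Ifi44l was the only gene on by the mirrored rule, and together these were 0.00805% of the 24858 genes fitted. BC018473, an antisense noncoding gene at chr11:116752167-116759373, had 2.2, 1.1, 2.6 and 0.0 normalized counts against 49.9 to 262.1 with a median of 131.3 (log2 change -6.67 ± 0.68, DESeq2 adjusted p = 5.733e-19, edgeR adjusted p = 0.000243). Non-responder tumors ranged from 0 to 207.3, so tumors without this transcript occurred there too. No other annotated gene overlapped it, and it shared no 100-base window with another gene. Its neighbor St6galnac1, a sialyltransferase gene, was 0 in all 4 CC002F1 tumors and 2.0 to 22.9 in the 8 others, at least 3.58-fold lower given a floor of 3 counts per library (DESeq2 adjusted p = 0.002885, edgeR adjusted p = 0.1323).

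Among genes higher in CC002F1, Lipo3 was above all 19 other tumors. Lipo3 belongs to a family of lipases on chromosome 19. It had 386.6, 285.4, 387.3 and 455.6 normalized counts against 90.8 to 178.6 with a median of 146.8 in the 8 others and 92.0 to 163.0 in non-responder tumors (log2 change 1.40 ± 0.17, DESeq2 adjusted p = 1.221e-12, edgeR adjusted p = 0.0009606). It overlaps its relative Lipo2 and shares 5.85% of its 100-base windows with other genes. Cep85, a centrosome protein, was also above all 19, at 3840, 3679, 5083 and 4340.2 against 1721 to 3171 with a median of 2227 (log2 change 0.89 ± 0.17, DESeq2 adjusted p = 7.993e-05, edgeR adjusted p = 0.04186). Cep85 shares 5.45% of its windows with other genes, mostly Cnbd2, and among them are the noncoding genes Gm26880 and Gm43305, which were called higher too.

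Tpsab1 encodes a tryptase of mast cells, the granule proteases that mark this cell type. It had 84.4, 113.9, 108.6 and 176.1 normalized counts in CC002F1 against 4.4 to 42.8 with a median of 23.8 in the 8 others, without overlap (log2 change 2.45 ± 0.39, DESeq2 adjusted p = 5.035e-07, edgeR adjusted p = 0.01784). Non-responder tumors, at 0 to 132.2, overlapped the CC002F1 range. The mast cell carboxypeptidase Cpa3 did not move with it, at 77.8, 86.3, 40.7 and 100.4 against 17.2 to 181.5 (log2 change -0.11 ± 0.51, DESeq2 adjusted p = 0.998). The chymase Mcpt4 was at 49.0 to 102.8 against 7.9 to 59.9 (log2 change 1.14 ± 0.47, DESeq2 adjusted p = 0.5425). Of 8 mast cell and eosinophil genes tested, which do not include Tpsab1, 1 was called, beside 0.4% of all genes tested. That gene, Ear2, is an eosinophil-associated ribonuclease and had 134.4, 104.3, 296.8 and 116.8 against 9.2 to 78.4 (log2 change 2.44 ± 0.48, DESeq2 adjusted p = 0.0003021, edgeR adjusted p = 0.0854). The eosinophil receptor gene Siglecf was at 10.6 or below in CC002F1.

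The other genes that both tools called higher were chosen after their values were seen, and several have near copies in the genome. Ephb1, a receptor tyrosine kinase for ephrins, rose by a log2 change of 2.61 ± 0.45 (DESeq2 adjusted p = 7.199e-06), and Tm4sf5, a tetraspan membrane protein, by 3.21 ± 0.43 (DESeq2 adjusted p = 2.414e-10). Neither went above 106.7 normalized counts in CC002F1. Non-responder tumors reached into the CC002F1 range of both, up to 66.1 for Ephb1 and 62.5 for Tm4sf5. The pseudogene Gm10709 had 745.5, 683.6, 1015 and 872.5 normalized counts against 0 to 20.1, but 74.3% of its 100-base windows occur elsewhere. Gm12191, a copy of the ribosomal gene Rpl30, had 288.6 to 475.3 in CC002F1, 0 to 13.7 in the 8 others and 163.9 to 540.6 in non-responder tumors, with 98.8% of its windows shared. Npm3-ps1 (17.6 to 46.7 normalized counts), Gm10031 (298.9 to 651.6) and the noncoding Gm43305 (35387 to 42462) completed the group. Counts of such copies depend on how reads were shared among them.

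Separation of the groups was counted for all genes. Of the 80 called genes, 42 had CC002F1 values that did not overlap those of the 8 others, and over all genes tested this held for 117, or 0.585%. Against all 19 other tumors 10 of the 80 stood apart, beside 15 of all genes tested (0.075%). Of the 117, 71 were higher in CC002F1 (0.355%) and 46 lower (0.23%). All 80 had the same sign against CC001F1 and against CC075F1, and 39 were called against each line alone. Of all genes, 169 (0.894%) were called against CC001F1 and 153 (0.738%) against CC075F1. These comparisons reuse the tumors by which the 80 were chosen, so the shared sign is not separate evidence. The difference was under 2-fold for 32 of the 80, over 2-fold and higher for 19 and over 2-fold and lower for 29. For scale, 72 genes were called for CC001F1 against the other responder lines (0.409%) and 76 for CC075F1 (0.333%), so CC002F1 at 80 had about as many as either other line.

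Some calls rested on 1 line or 1 tumor. Fat3, an atypical cadherin, had 2.1 to 7.8 normalized counts in CC002F1 against 14.7 to 540.5 in the 8 others. Its change was large against CC001F1 (log2 change -6.68, DESeq2 adjusted p = 1.117e-63) and not called against CC075F1 (-2.43, DESeq2 adjusted p = 0.07217), and edgeR did not call it (adjusted p = 0.2289). Ly6i, a Ly6 family surface protein of monocytes, was likewise called against CC001F1 (log2 change -5.25) and not against CC075F1 (-1.65, DESeq2 adjusted p = 0.05152). Glycam1, the sugar-bearing protein of lymph node venules, was called at a log2 change of 23.99, but it had 429.9 normalized counts in CC002F1 isotype replicate 1 and 0 in the other 11 tumors (edgeR adjusted p = 0.5809).

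Small differences without overlap were also called. The scaffold protein Tanc2 (log2 change 0.34), the glutathione transferase Gsto1 (0.30), the cytoskeletal protein Add3 (0.22) and the p53 inhibitor Mdm4 (0.16) were higher, and Tspan32 (-0.97), Wfdc17 (-0.81) and Zbtb3 (-0.48) were lower. None of these 7 passed edgeR, with adjusted p from 0.09307 for Tanc2 to 0.7061 for Zbtb3. When each of the 12 libraries was left out in turn, the DESeq2 call was lost 10 times for Add3 and Zbtb3, 9 times for Mdm4 and 6 times for Gsto1, and Tanc2 lost it without CC002F1 isotype replicate 1. Gm43305 at 0.48 was the smallest change that edgeR called.

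Neighboring genes were examined for loci that differ together. By a rule of at least 4 called genes of the same direction within 500 kb of each other there was no cluster. Under a looser rule chosen after the data were seen, 13 called genes fell into 6 groups of 2 or 3. They were Lyz2 with Lyz1, Cd300ld4 with Cd300ld3, Ccl9 with Wfdc17, BC018473 with St6galnac1 and 1810032O08Rik, Hbb-bt with Trim5, and Trf with Gm20425. In the lysozyme and CD300 pairs the members changed in opposite directions. Chromosome 11 held 15 of the calls (1.01% of its 1481 genes tested), among them 3 of these groups.

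Immune makeup was described by the summed normalized counts of marker genes and by how many markers were called. T cell markers summed to 2281, 1220, 2517 and 3371 in CC002F1 and to 1585 to 5646 with a median of 2540 in the 8 others. Cytotoxic markers (CD8 and cytotoxic lymphocyte list) summed to 3251, 2861, 5805 and 6032 against 3014 to 11626, and NK cell markers to 2736, 2438, 3544 and 4201 against 2509 to 6428. All 3 lists overlapped between the groups. Their median log2 changes were -0.43, -0.50 and -0.34, beside -0.01 for all genes tested. None of 12 T cell genes and none of 10 cytotoxic genes was called, and 1 of 12 NK cell genes was, beside 0.4% of all genes tested.

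That gene, Klrb1c, encodes the NK1.1 receptor and had 38.9, 40.5, 55.0 and 81.0 normalized counts in CC002F1 against 78.7 to 313.0 (log2 change -1.46 ± 0.32, DESeq2 adjusted p = 0.002885, edgeR adjusted p = 0.2903). It was called against CC075F1 and not against CC001F1. Ncr1, the NKp46 receptor that defines NK cells, was not lower, at 76.7, 67.1, 199.2 and 206.1 against 35.6 to 302.5 (log2 change 0.16 ± 0.41, DESeq2 adjusted p = 0.998). Klra5, a Ly49 receptor gene outside the list, was higher in CC002F1 than in all 19 other tumors at 35.6, 40.5, 89.9 and 112.7 (log2 change 2.47 ± 0.55, DESeq2 adjusted p = 0.003087, edgeR adjusted p = 0.2283). The NK receptor genes named here thus went in different directions.

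Calls between isotype tumors alone were more frequent over all genes, at 2.34% beside 0.4% in the 12 tumors, and they included lymphocyte genes. Cd8a, the CD8 alpha chain, was at 378.8 and 260.9 in CC002F1 (log2 change -1.05, DESeq2 adjusted p = 0.0001538), the granule protein gene Nkg7 at 193.3 and 170.4 (-0.92, DESeq2 adjusted p = 0.007441) and the T cell receptor subunit Cd3g at 134.4 and 88.4 (-1.16, DESeq2 adjusted p = 0.01275). The NK receptor genes Klrb1c and Klrk1 were lower as well. Between aPD1 tumors none of the T cell, cytotoxic or NK cell genes was called. The isotype comparison had 2 tumors on 1 side, and all of these genes had a DESeq2 adjusted p above 0.05 in the 12 tumors except Klrb1c.

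B cell markers summed to 2181 in CC002F1 isotype replicate 1 and to 231.5 to 357.8 in the other 3 CC002F1 tumors, beside 229.4 to 388.6 in the 8 others. The 10 B cell genes had a median log2 change of 0.91, which was -0.24 without that tumor. The lymph node list (Glycam1, Cr2, Fcer2a and others) summed to 1124 in the same tumor and to 31.7 to 72.4 in the other 3. None of the 10 B cell genes was called in the 12 tumors. With isotype tumors alone 5 were called higher, all high in that tumor, while 2.34% of all genes were called in either direction. Cxcl13 was 58.9 there, the highest of the 4 CC002F1 tumors and still below all of the other responder-line tumors.

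No gene of the macrophage, monocyte or neutrophil lists was called in the 12 tumors. Myeloid genes outside these lists were called. Lyz2, Ly6i, Cd300ld4, Cybb, Acp5, Il1b, Fpr1, Lilra5 and Chil1 were among those lower, and Lyz1, Cd300ld3 and Ear2 among those higher. Cybb had 5608, 5281, 8313 and 8484 normalized counts in CC002F1 against 7792 to 18432, with overlap. These names were chosen after their values were seen. Macrophage markers summed to 91983, 87825, 136363 and 134472 in CC002F1 against 103112 to 171226, with both isotype tumors below that range. Monocyte markers summed to 8028, 7114, 12047 and 9118 against 9775 to 12318, so 3 of the 4 CC002F1 tumors were below all 8 others. The 9 monocyte genes had a median log2 change of -0.20. Between isotype tumors Ccr2, the receptor that brings monocytes into tissue (log2 change -0.78, DESeq2 adjusted p = 0.001114), and the macrophage apolipoprotein gene Apoe (-0.81, DESeq2 adjusted p = 2.725e-06) were called lower. Type 1 dendritic cell markers had a median log2 change of -0.04, with 1 of 8 called, beside 0.4% of all genes tested. That gene was Xcr1, the XCL1 receptor of cross-presenting dendritic cells, at 16.7, 34.1, 47.9 and 86.3 against 46.8 to 510.2 (log2 change -1.71 ± 0.43, DESeq2 adjusted p = 0.02198, edgeR adjusted p = 0.5789). Neutrophil genes had a median of -1.03 with none of 6 above 0 and none called, and the defining gene Ly6g was 0 in all 12 tumors.

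Interferon-gamma response genes were on the lower side as a list. All 15 had a negative log2 change, the median was -0.30, and 1, Cxcl11, was called, beside 0.4% of all genes tested. The Ifi200 family, interferon-induced sensors of DNA, had a median of -0.62 with none of 13 called. Genes of MHC class II had a median of -0.36 with none of 11 called, and 16 cell cycle genes a median of 0.00. Between isotype tumors Gbp5 was the gene of the interferon-gamma list that was called, as given above.

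Markers of tissue around the tumor also varied. Red blood cell genes were the only list, of 42, whose summed level in CC002F1 tumors (391.1, 589.9, 534.1 and 506.1) did not overlap the 8 others (795.8 to 5257). Of its 4 genes tested, 1 was called, beside 0.4% of all genes tested. It was Hbb-bt, a beta globin (log2 change -1.91 ± 0.46, DESeq2 adjusted p = 0.01335, edgeR adjusted p = 0.5789). The summed level in non-responder tumors, at 334.6 to 2568, covered the CC002F1 range. Skeletal muscle genes had a median of -4.15 with none of 10 called, and their sums ran from 114.7 to 28607 among the 8 others. Fibroblast genes had a median of 0.29, of -0.33 between isotype tumors and of 0.73 between aPD1 tumors. What these tissues contributed to the differences above was not tested.

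**Figure D3:**
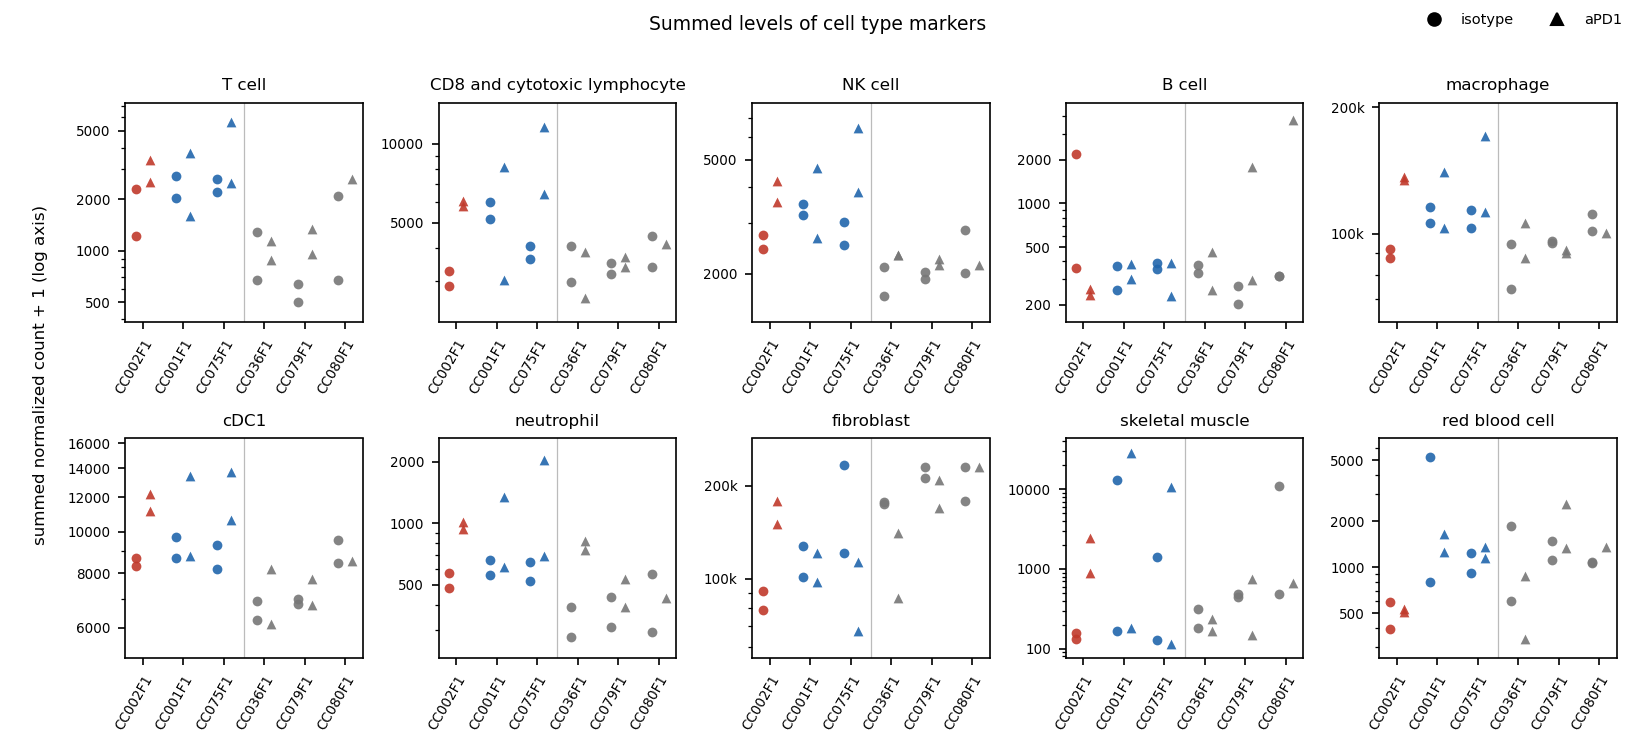
Summed normalized counts plus 1 of 10 marker lists on a log axis, with 1 point per tumor, circles for isotype and triangles for aPD1, CC002F1 in red, other responder lines in blue and non-responder lines in grey. CC002F1 overlaps the other responder lines in 9 of the 10 lists and lies below them for red blood cell genes, and the high B cell point of CC002F1 is isotype replicate 1 at 2181.

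The antibody change within CC002F1 rests on 2 aPD1 and 2 isotype tumors and is described without a test. Of 15140 genes with a mean of at least 20 normalized counts, 8294 (54.8%) had both aPD1 tumors on 1 side of both isotype tumors, 4176 higher (27.6%) and 4118 lower (27.2%), which is the background for the counts that follow. A separation with a change of at least 2-fold was seen in 638 (4.21%), 484 higher (3.2%) and 154 lower (1.02%) with aPD1. Separated increases were wide in many lists, interferon-induced genes among them. All 20 type I interferon genes, 11 of 11 guanylate-binding proteins and 13 of 15 interferon-gamma response genes were higher in both aPD1 tumors. So were 11 of 12 NK cell, 11 of 12 MHC class I presentation and 10 of 12 macrophage genes. With at least 2-fold, the interferon lists in the same order had 4 of 20, 8 of 11 and 4 of 15. NK cell genes had 9 of 12 and skeletal muscle genes 9 of 9. Ifng itself, the cytokine of activated T and NK cells, went from 56.7 and 33.0 to 167.5 and 129.8 normalized counts.

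Cxcl9, the chemokine for CXCR3 on T cells, went from 7200.2 and 7081 to 19309 and 14449. Gbp10 went from 266.6 and 254.5 to 937.7 and 656.4, and the class II gene H2-Ab1 from 8461 and 6283 to 16733 and 18100. Of the cytotoxic genes, Gzmb (granzyme B) went from 677.7 and 725.1 to 1439 and 1186 and Prf1 (perforin) from 255.5 and 378.0 to 807.7 and 840.2, while Gzma was not separated. Genes that set CC002F1 apart were among those separated. Ifi44l, Gbp2b, Lyz1 and Lyz2 were each higher in both aPD1 tumors, by log2 ratios of 0.85, 1.18, 0.88 and 0.80, while Cxcl13 and Ctse were not separated.

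The size of the change was set beside that of the other responder lines, each 2 against 2 and without a test. Guanylate-binding proteins had a median log2 ratio of 1.14 in CC002F1, 0.35 in CC001F1 and 1.05 in CC075F1. NK cell genes had 1.14, -0.09 and 1.12, and cytotoxic genes 0.92, -0.02 and 1.39 in the same order. Type I interferon genes had 0.87, 1.01 and 0.68. The CC001F1 values rest on aPD1 tumors that differed, since cytotoxic markers summed to 3014 and 8171 in aPD1 replicates 1 and 2 beside 5156 and 5996 in its isotype tumors. Fibroblast genes had 1.04, -0.03 and -0.37, and B cell genes -2.69, 0.10 and -0.42, where the CC002F1 value came from the B cell-rich isotype tumor.

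**Figure D4:**
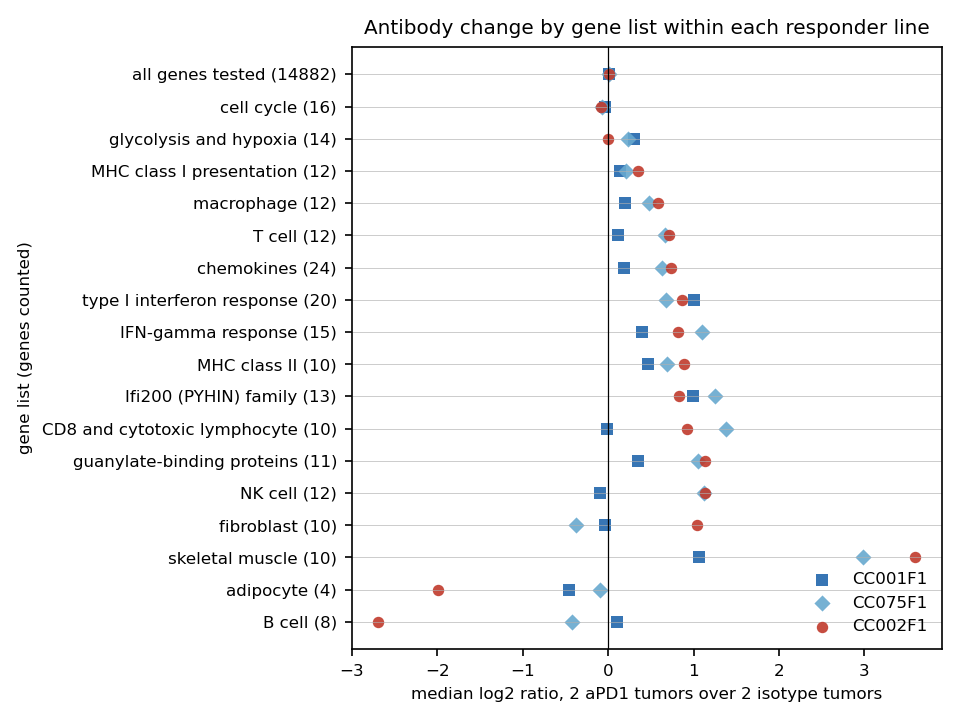
Median log2 ratio of 2 aPD1 over 2 isotype tumors for gene lists, with the number of genes counted in brackets, for CC002F1 (red circles), CC001F1 (dark blue squares) and CC075F1 (light blue diamonds). The median over all genes is near 0 in each line, and in CC002F1 the guanylate-binding protein list is at 1.14 and the fibroblast list at 1.04.

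Among protein-coding genes with a mean of at least 100 normalized counts, the 8 with the largest separated increase within CC002F1 were Myh1, Xirp2, Acta1, Sfrp2, Cilp, Des, Mmp13 and Cpxm1. Myh1, Xirp2, Acta1 and Des, which encode proteins of the muscle fiber, went from 0 to 108.9 normalized counts in isotype tumors to 144.2 to 601.2 in aPD1 tumors. The skeletal muscle list summed to 157.8 and 132.0 in isotype tumors and 900.1 and 2470 in aPD1 tumors. Cilp, a cartilage matrix protein, went from 253.3 and 407.8 to 1577 and 1925, and the collagenase gene Mmp13 from 76.7 and 106.5 to 344.0 and 429.2. Sfrp2, a secreted Wnt modulator, was high in aPD1 replicate 1 alone (393.8 against 30.9 to 49.3 in the other 3).

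With the same minimum mean, the 8 with the largest separated decrease were Car6, Cfd, Cdsn, Cth, Gadd45a, Mamdc2, Hp and Tmem56. Cdsn, a protein of cell junctions in the outer skin, went from 1053 and 1052 to 296.8 and 116.3, and the carbonic anhydrase gene Car6 from 689.9 and 630.4 to 138.4 and 36.4. Cfd, the adipocyte protein adipsin, and Hp, haptoglobin, were highest in isotype replicate 1, at 334.4 and 486.6. Adipocyte genes summed to 2545 in that tumor and to 510.8 to 894.3 in the other 3. Cth, an enzyme of cysteine synthesis, went from 235.5 and 271.5 to 60.1 and 68.1, and Gadd45a, a stress-induced growth arrest gene, from 1901 and 1887 to 556.1 and 402.2.

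Whether the antibody change in CC002F1 differed from that in the other responder lines was tested over the 12 tumors as an interaction. DESeq2 called 348 of 14253 genes (2.44%), 134 with a higher (0.94%) and 214 with a lower change (1.5%) in CC002F1. edgeR called 16 of 24858 (0.0644%), all among the 348, and these 16 were chosen after their values were seen. The DESeq2 count ranged from 99 without CC002F1 aPD1 replicate 1 to 575 without CC001F1 aPD1 replicate 1, and it was 156, 159 and 192 without CC002F1 isotype replicate 1, isotype replicate 2 and aPD1 replicate 2. Chac1, a glutathione-degrading enzyme induced when amino acids run short, had 942.1 and 995.6 normalized counts in CC002F1 isotype tumors and 356.3 and 315.3 in aPD1 tumors, against 307.8 to 565.0 in all 8 other tumors (log2 difference -1.84 ± 0.25, DESeq2 adjusted p = 1.839e-09, edgeR adjusted p = 0.02239). The isotype tumors of CC002F1 were thus the ones outside the range of the other responder lines. Of the non-responder tumors, CC036F1 aPD1 replicate 2 alone was above them, at 1041.0.

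Gadd45a in the 2 CC002F1 isotype tumors was also above all 8 others, which had 436.6 to 1247, while CC002F1 aPD1 replicate 2 at 402.2 was below them (log2 difference -2.28 ± 0.42, DESeq2 adjusted p = 4.295e-05, edgeR adjusted p = 0.07715). Snai2, a repressor that drives mesenchymal change, went from 401.1 and 366.3 to 108.0 and 123.3 in CC002F1 and lay at 112.4 to 209.0 in the 8 others (log2 difference -2.09 ± 0.28, DESeq2 adjusted p = 1.839e-09, edgeR adjusted p = 0.02491). The non-responder tumor CC036F1 aPD1 replicate 2 was above every CC002F1 tumor in both genes, with Gadd45a at 2998.9 and Snai2 at 414.9. The other non-responder tumors were below the 2 CC002F1 isotype tumors in both. Sesn2, a stress-induced inhibitor of growth signaling, differed by -1.25 ± 0.21 (edgeR adjusted p = 0.03469), and Chka, choline kinase, by -1.64 ± 0.26 (edgeR adjusted p = 0.03469). Cth differed by -2.17 ± 0.60 (DESeq2 adjusted p = 0.02182) and Cdsn by -2.88 ± 0.87 (DESeq2 adjusted p = 0.04482), and edgeR called neither. With each of the 12 libraries left out in turn, the DESeq2 call was lost 6 times for Cth and 7 times for Cdsn.

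Ptgs2 and Klf5 were lower with aPD1 in CC002F1 and higher with aPD1 in both other lines. Ptgs2, the prostaglandin synthase COX-2, went from 2694 and 3005 to 1845 and 1448 in CC002F1, while its log2 ratio was 1.06 in CC001F1 and 1.42 in CC075F1 (log2 difference -2.05 ± 0.36, DESeq2 adjusted p = 8.947e-06, edgeR adjusted p = 0.06126). Klf5, a transcription factor of epithelial growth, had ratios of -0.87, 0.88 and 1.05 in CC002F1, CC001F1 and CC075F1 (edgeR adjusted p = 0.03997). Htatip2, Plk2, Brwd1 and Dst also had a lower change that edgeR called.

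Genes with a higher change in CC002F1 included Mrgprf, an orphan receptor gene, from 66.7 and 52.2 to 203.1 and 159.7 with ratios of -0.86 and -1.48 in CC001F1 and CC075F1 (log2 difference 2.77 ± 0.46, DESeq2 adjusted p = 1.77e-06, edgeR adjusted p = 0.03469). Pmepa1, a gene induced by TGF-beta that dampens its signal, differed by 1.29 ± 0.19 (edgeR adjusted p = 0.02239), and Gpc1, Ddah2 and Tmem19 were called by edgeR too. The X-linked genes Xlr5a and Xlr5b differed by 1.46 and 1.44, and they share 69.1% and 81.3% of their 100-base windows with relatives, so their counts are uncertain. Cpxm1, Ip6k3, Islr and the tight junction gene Cldn1 were called by DESeq2 at 2.42 to 2.69 and not by edgeR. With 1 library left out the call was lost 7 of 12 times for Cpxm1 and Islr and 5 times for Cldn1.

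Among members of the gene lists 6 were called. Gbp10, Ccl2, the fibroblast proteoglycan Dcn and the inflammasome receptor Naip1 had a higher change and Krt8 and Cox6a2 a lower one in DESeq2, and edgeR called none of them. Over all genes tested the called share was 2.44%. The interferon-gamma, type I interferon, cytotoxic, NK cell and MHC class II lists held no called gene, and their median log2 differences were 0.05, -0.06, 0.44, 0.68 and 0.53. A larger or smaller antibody change of these lists in CC002F1 than in the other lines was not detectable gene by gene at this number of tumors.

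**Figure D5:**
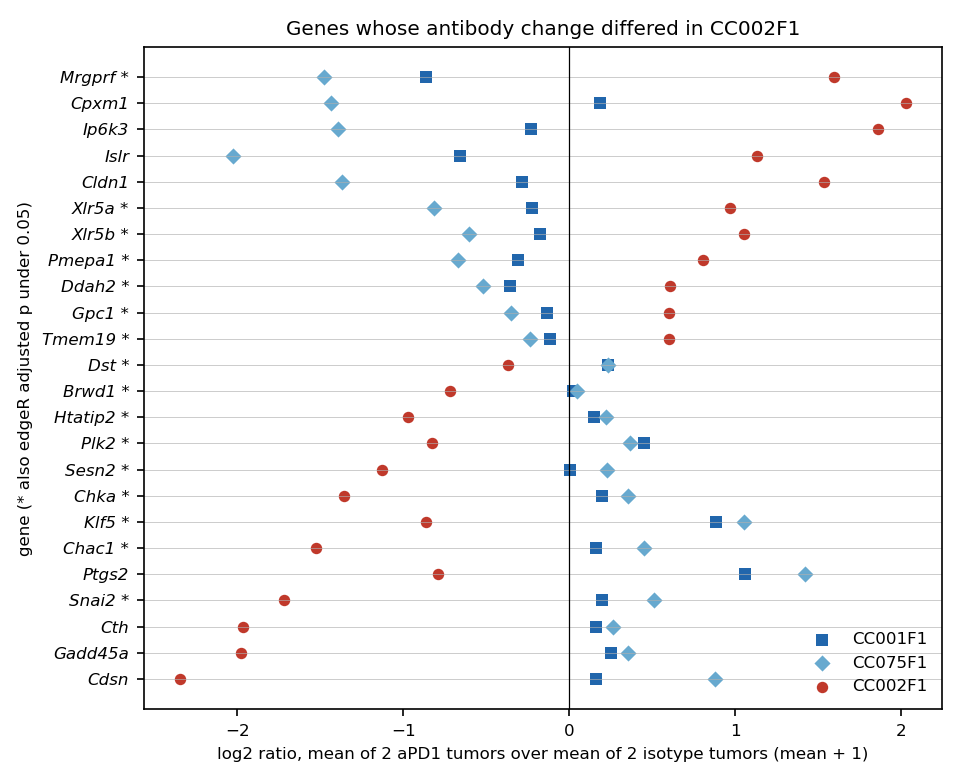
Log2 ratio of the mean of 2 aPD1 over the mean of 2 isotype tumors, each mean plus 1, in CC002F1 (red circles), CC001F1 (dark blue squares) and CC075F1 (light blue diamonds) for 24 genes whose change differed in DESeq2. An asterisk marks the 16 that edgeR called, and CC002F1 lies on the other side of 0 from CC075F1 in every gene shown.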

How the data were processed

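RNA of 23 tumors was sequenced as poly(A) libraries with 100-base paired reads. The deposited table holds expected counts per gene, which the authors made by aligning reads with bowtie 1.2.3 to transcriptomes of the Collaborative Cross founder strains, built on GRCm38 with g2gtools 0.2.9 and GENCODE vM23, and by apportioning shared reads with EMASE in GBRS. Strand use in counting is not given in the sources used here. Expected counts were rounded to whole numbers (16.95% of values were not whole). Symbols and positions came from GENCODE vM21, which held 26681 of 26869 gene identifiers, and the others held 0.099% of counts. Totals of the 12 responder-line libraries ran from 14494014 to 71868253.

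Genes with at least 5 counts summed over 12 libraries were tested with DESeq2 1.42.0 (Wald test, defaults, R 4.3.3), the study's tool, with host and antibody as terms and a Benjamini-Hochberg adjusted p under 0.05. Normalized counts were counts divided by DESeq2 size factors. An interaction term tested whether the antibody change differed. The change within CC002F1 was a log2 ratio of means, counted where both aPD1 tumors lay beyond both isotype tumors. Ratios set beside those of the other responder lines used means plus 1. edgeR 4.0.16 (quasi-likelihood, TMM), limma 3.58.1, other filters, a depth term, line as a term, single comparison lines and left-out libraries were alternatives. The 8 comparison tumors come from 2 lines, so tumors of a line are not independent samples of other lines. GEO's labels give biological replicates, with no further account of litters or days. The DESeq2 and edgeR tests of host and of the interaction were also run on simulated counts with known changes, and the other procedures were not.

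Genes named were the 10 largest changes in each direction among protein-coding calls with a mean of at least 100 normalized counts and no overlap (9 met this upward), on/off genes, the 8 largest changes in each direction within CC002F1, the 5 largest interactions in each direction, and members of 42 lists of cell types and pathways. Other names were chosen after their values were seen. The members and lists were chosen with earlier results of these data known. Windows of 100 bases of each gene's transcripts were matched exactly against all other genes' transcripts to find copies. Lists were described and not tested.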

Additional observations from a re-analysis of the deposited data

Results flagged for a closer look

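In 10 of 84 groups of 4 or 8 tumors examined for a single value far from the rest, 1 tumor stood apart, and chance gives about 1 in 20 such groups (5%). Among CC002F1 tumors, isotype replicate 1 was far above the other 3 in summed B cell markers (2180.8 normalized counts) and in the lymph node list (1124.3). Among the 8 tumors of CC001F1 and CC075F1, the lymph node list was highest in CC075F1 aPD1 replicate 1 (130.2), the plasmacytoid dendritic cell list in CC001F1 aPD1 replicate 2 (10268.2), the fibroblast list in CC075F1 isotype replicate 2 (233038.4), the skeletal muscle list in CC001F1 aPD1 replicate 1 (28607.2) and the red blood cell list in CC001F1 isotype replicate 1 (5257.1). Of single genes, Ifi44l stood apart in CC001F1 aPD1 replicate 2 at 1.8 normalized counts, and Ctse (325.6) and Wfdc17 (530.4) in CC075F1 aPD1 replicate 1. Even so, the 4 CC002F1 tumors did not overlap the 8 others in any of these 3 genes.

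The antibody change differed between CC002F1 and the other responder lines by the DESeq2 interaction test for 10 genes, the 5 with the largest difference in each direction among protein-coding calls with a mean of at least 100 normalized counts. It was higher in CC002F1 for Mrgprf (log2 difference 2.77), Cpxm1 (2.69), Ip6k3 (2.67), Islr (2.42) and Cldn1 (2.42). It was lower for Cdsn (-2.88), Gadd45a (-2.28), Cth (-2.17), Snai2 (-2.09) and Ptgs2 (-2.05). edgeR called Mrgprf and Snai2 of these.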

How the results depend on the processing

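Genes called for CC002F1 against the other responder lines numbered 80, and 128 with aPD1 tumors only, 361 with isotype tumors only, 169 against CC001F1 only, 153 against CC075F1 only, 27 against all 19 other tumors, 20 with edgeR and 18 with edgeR and at least 10 counts in at least 4 libraries. Leaving out 1 library gave 49 (without CC002F1 isotype replicate 1) to 187 (without CC001F1 aPD1 replicate 1), and 126 without CC075F1 isotype replicate 2. TMM scaling, a depth term, line as a term, a stricter or no filter and only deep libraries gave 76 to 120. Genes called for the difference of the antibody change numbered 348, and 16 with edgeR, 200 with only libraries of over 20000000 counts, 156 and 159 without CC002F1 isotype replicate 1 or 2, 192 without CC002F1 aPD1 replicate 2, and 99 (without CC002F1 aPD1 replicate 1) to 575 (without CC001F1 aPD1 replicate 1) over all left-out libraries. The 638 genes counted within CC002F1 became 3001 with no minimum mean, 246 with a mean of at least 100 and 643 to 1015 with 1 tumor left out. The 2 on/off genes became 1 against all 19 other tumors and 2 to 3 with 1 library left out. Clusters numbered 0 by the rule, 0 to 2 with 1 library left out (2 without CC001F1 aPD1 replicate 1) and 6 under the rule added after seeing the data. No count or named gene reversed. The B cell list median went from 0.91 to -0.24 without CC002F1 isotype replicate 1, and the fibroblast median from 0.29 to -0.33 with isotype tumors only. The cause of these shifts was not tested. Same-numbered tumors did not deviate together (correlations from -0.294 to 0.284 over 15 pairs of groups), and a replicate block gave 68 and 342 calls. Depth limits genes of few counts, since 2 of the 12 libraries held under 20000000 counts.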
